A study of Mus musculus with 20 samples.

Results

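Follicles of mice that drank iodoacetic acid at either dose were compared with follicles of mice that drank water alone, with the experiment a mouse belonged to kept as a term of the model. All 20 of the study's 20 mice entered, 10 exposed and 10 on water, and 18169 of the 39253 genes of the deposited table were tested, those that the authors marked as kept. Iodoacetic acid, written IAA in the labels, is a by-product of water disinfection. The animals were female CD-1 mice, an outbred stock, so that individuals of one group differ in their genes. From an age of 40 days they drank IAA at 500 mg/L, IAA at 10 mg/L or the reverse osmosis water that was the vehicle, for 35 days. At 75 days, in diestrus, 30 to 40 antral follicles of 220 to 400 µm were dissected from the ovaries of each mouse, and each RNA library held the follicles of 1 mouse. Experiment 1 held 5 mice at 500 mg/L and the water mice numbered 6 to 10. Experiment 2, run a month apart, held 5 mice at 10 mg/L and the water mice numbered 1 to 5. Each dose was thus given in 1 experiment, so dose and experiment cannot be told apart, and what the comparison estimates is the mean effect of the pair of doses, each against water mice of its own experiment. The labels say nothing of litters or cages, and p-values treat the mice as unrelated. Several mice share the first number of the mouse code in their title, and no such number occurs in both water and exposed mice. What the codes stand for is not stated, and a grouping by that number was not tested.

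An antral follicle is an oocyte surrounded by layers of granulosa cells and, outside a basement membrane, theca cells with blood vessels between them. Theca cells make androgen, which granulosa cells convert to oestradiol. Iodoacetic acid alkylates thiol groups of proteins, and it is the classic inhibitor of the glycolytic enzyme glyceraldehyde-3-phosphate dehydrogenase, encoded by Gapdh. Cells that meet such thiol-reactive compounds are known for responses through the antioxidant factor NRF2, through heat shock factors and through the unfolded protein response, and the genes of these pathways are described after the genes that stood out in the comparison.

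Library totals lay between 39856769 and 67490163 estimated counts, and the biological coefficient of variation, the spread of a gene's level among like mice beyond counting error, was 25.2%. Levels are given in CPM, counts relative to the library total, which compare mice but not genes of different length. Markers of granulosa, theca and oocyte cells were present in every mouse: the summed level of 12 granulosa markers ran from 8984 to 19749 CPM, that of 10 theca markers from 1650 to 4828 CPM and that of 14 oocyte markers from 437 to 957 CPM. In whole follicles, a different share of cells of a type and a different amount of RNA per cell cannot be told apart. The experiments differed from each other: the experiment term passed an adjusted p of 0.05 for 370 genes, 2.04% of those tested, 165 of them higher in experiment 2 and 205 higher in experiment 1 (edgeR quasi-likelihood test, Benjamini-Hochberg adjustment).

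Exposure itself passed that threshold for 2 genes, 0.011% of those tested. Both were higher in exposed mice (0.011%), and none was lower. They were Mid1, which encodes a microtubule-associated ubiquitin ligase that binds the regulatory alpha4 subunit of protein phosphatase 2A, and Tmsb15b1, which encodes a beta-thymosin, one of the small proteins that bind actin monomers. At an unadjusted p under 0.05, 1197 genes (6.59%) were set apart, 648 of them higher (3.57%) and 549 lower (3.02%) in exposed mice. The median log2 change over all genes was 0.01 and 51.9% of genes were positive.

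Mid1 rose in the follicles of exposed mice. In experiment 1 the water mice 6 to 10 had 18.4, 26.8, 24.8, 18.1 and 17.5 CPM, and the mice 1 to 5 at 500 mg/L had 41.2, 43.6, 27.9, 64.5 and 39.1 CPM. In experiment 2 the water mice 1 to 5 had 17.5, 21.3, 22.7, 20.5 and 27.6 CPM, and the mice 1 to 5 at 10 mg/L had 32.4, 37.0, 47.5, 46.4 and 53.3 CPM. Every exposed mouse lay above every water mouse, although the closest pair, 27.9 against 27.6 CPM, nearly touched. Mid1 was the only gene of the 18169 whose exposed mice lay above the water mice in both experiments (0.0055% of genes), and no gene (0%) had all exposed mice below the water mice in both. The lowest exposed mouse also lay above the highest water mouse of Mid1 with DESeq2's size factors (28.1 against 27.5 CPM), with upper-quartile factors and without scaling factors. Exposed mice averaged 43.3 ± 10.5 CPM (SD, n = 10) and water mice 21.5 ± 3.83 CPM (SD, n = 10). The log2 change was 1.01 (SE 0.13, 95% interval 0.73 to 1.29) with an edgeR adjusted p of 0.00455. It was 1.03 at 500 mg/L and 0.98 at 10 mg/L, and the difference of these changes was 0.05 with an unadjusted p of 0.849. Mid1 was called in 20 of 20 fits that left out 1 mouse, at adjusted p-values of 0.000861 to 0.0169.

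RefSeq lists 3 starts for Mid1 on the X chromosome, and counts per gene do not say which of them the follicles used. The 250 bases before the most upstream start (GRCm38.p6, chrX:169684949-169685198, plus strand) are shown because Mid1 is the gene on which the comparison turns. Capitals mark the one match to the core of the antioxidant response element, TGACNNNGC on either strand, the letters bound by NRF2.

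Mid1: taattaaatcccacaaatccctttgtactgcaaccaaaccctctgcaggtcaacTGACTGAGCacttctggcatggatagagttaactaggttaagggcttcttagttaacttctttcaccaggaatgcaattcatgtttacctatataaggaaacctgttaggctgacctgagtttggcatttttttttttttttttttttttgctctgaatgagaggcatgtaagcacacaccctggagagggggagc

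The match begins 196 bases before the start. The same letters occur in 3338 of the 32851 promoters of the table over the same length (10.2%), so the match describes the sequence and is not a site shown to be bound. The other Mid1 starts hold none in their 250 bases.

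Of 11 tested members of the midline and phosphatase group, Mid1 alone passed the adjusted threshold, and their median was -0.01. Its close relative Mid2 had a log2 change of 0.07 (95% interval -0.14 to 0.27), and Igbp1, which encodes the alpha4 subunit, had 0.10 (-0.02 to 0.21). Trim9, another ligase of the same family, had -0.60 (-1.15 to -0.05) at an adjusted p of 0.736. Mid1 lies at the edge of the pseudoautosomal region in laboratory mice, and of 4 X-linked genes known to escape silencing, Ddx3x had the largest change, 0.16 (0.00 to 0.32), while the median of the 4 was 0.01.

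Tmsb15b1 rose from a low level. Water mice 6 to 10 had 0.619, 0.581, 0.378, 0.371 and 0.685 CPM, and the mice at 500 mg/L had 0.974, 3.64, 1.51, 1.80 and 1.75 CPM. Water mice 1 to 5 had 0.525, 0.390, 0.311, 0.583 and 0.330 CPM, and the mice at 10 mg/L had 1.39, 0.509, 0.654, 1.71 and 1.79 CPM. All 5 mice at 500 mg/L lay above every water mouse, whereas mice 2 and 3 at 10 mg/L lay among them. The means were 1.57 ± 0.868 CPM (SD, n = 10) and 0.477 ± 0.136 CPM (SD, n = 10). The log2 change was 1.69 (SE 0.26, 95% interval 1.14 to 2.24) with an edgeR adjusted p of 0.0260. The call was less stable than that of Mid1: it held in 8 of 20 fits without 1 mouse, with adjusted p-values from 0.0055 to 0.0896, and limma-voom gave 0.157 and limma-trend 0.0642.

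Tmsb15b1 is one of 3 overlapping gene models. In RefSeq, Tmsb15l is a longer model that begins at the base where Tmsb15b1 begins, and Tmsb15b2 follows it as a near copy. The bases before the starts are shown for their likeness. They end before the first annotated exon of Tmsb15b2, so they do not show whether reads can be assigned to one model. Transcript sequences of the models were not compared. Capitals mark the bases that differ between the 2 sequences, which were aligned without gaps (GRCm38.p6, minus strand, chrX:136976886-136977089 and chrX:136958026-136958229).

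Tmsb15b1 and Tmsb15l: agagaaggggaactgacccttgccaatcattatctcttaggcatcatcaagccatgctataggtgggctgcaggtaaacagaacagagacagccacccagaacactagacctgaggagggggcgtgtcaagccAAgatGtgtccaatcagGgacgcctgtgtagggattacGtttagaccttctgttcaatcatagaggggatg
Tmsb15b2: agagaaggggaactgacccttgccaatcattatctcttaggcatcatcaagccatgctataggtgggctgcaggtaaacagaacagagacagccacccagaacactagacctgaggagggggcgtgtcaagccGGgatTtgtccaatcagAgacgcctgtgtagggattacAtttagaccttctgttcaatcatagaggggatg

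Of these 204 bases, 199 are identical and 5 differ, and the table's 300 bases for Tmsb15b1 and Tmsb15l are the same. Salmon divides reads that fit several models by estimation, so the level of each of the 3 is uncertain. Tmsb15l had 16.3 to 45.6 CPM in exposed mice and 16.0 to 31.5 CPM in water mice, a log2 change of 0.35 (95% interval 0.05 to 0.65) at an adjusted p of 0.682. Tmsb15b2 averaged 4.69 ± 1.61 and 3.93 ± 0.922 CPM (SD, n = 10 each), a log2 change of 0.26 (-0.13 to 0.64). When the counts of the 3 models were summed, a choice made after seeing the data, the log2 change was 0.38 and the adjusted p was 0.665. The other beta-thymosins tested, Tmsb4x and Tmsb10, had -0.05 and -0.09.

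**Figure D1:**
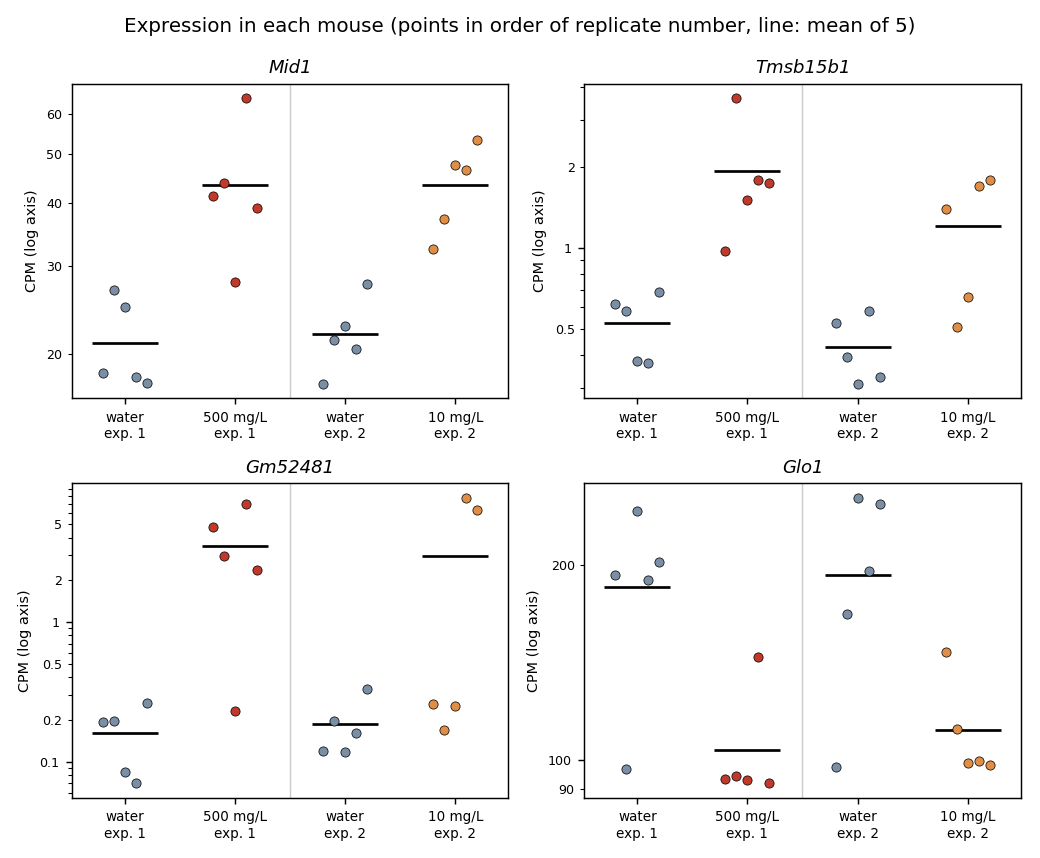
Level of Mid1, Tmsb15b1, Gm52481 and Glo1 in each of the 20 mice, in CPM on a log axis, by group (points: mice in the order of their numbers, lines: means of 5). All exposed mice lie above all water mice for Mid1, 8 of 10 exposed mice do so for Tmsb15b1, 6 of 10 for Gm52481, and for Glo1 8 of 10 water mice lie above every exposed mouse.

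Gm52481, a predicted gene that RefSeq places next to the pseudogene Mid1-ps1 on the Y chromosome, had the next smallest p, an adjusted p of 0.0677 and the largest fold of the genes named here. All 10 water mice had between 0.0696 and 0.330 CPM. The mice at 500 mg/L had 4.80, 2.97, 0.229, 6.99 and 2.36 CPM, and those at 10 mg/L had 0.259, 0.170, 0.252, 7.75 and 6.35 CPM. The exposed mice thus fell into 6 above 2 CPM and 4 at the level of water mice. Mouse 3 at 500 mg/L, the one of its group at water level, was also the lowest of its group in Mid1 (27.9 CPM), and mice 4 and 5 at 10 mg/L, with 46.4 and 53.3 CPM of Mid1, lay above mice 1 and 2 of their group though not both above mouse 3. The log2 change was 4.20 (95% interval 2.70 to 5.70). The animals were female and carry no Y chromosome, so these values cannot be read as expression of the annotated Y copy. Where the reads counted for this gene came from was not tested, nor whether they can be told apart from reads of Mid1.

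Beyond these 3, the genes with the smallest p-values, a mean of at least 2 CPM and one sign in both experiments are described without being called by edgeR. DESeq2 called some of them, which are named with the other settings below. Glo1, which encodes glyoxalase 1, the enzyme that clears the glycolytic by-product methylglyoxal with glutathione, was the lower gene with the smallest p. Water mice 6 to 10 had 193, 96.9, 242, 189.9 and 202 CPM against 93.4, 94.4, 93.0, 144 and 91.8 CPM at 500 mg/L. Water mice 1 to 5 had 97.3, 168, 254, 196 and 248 CPM against 147, 112, 98.7, 99.6 and 98.2 CPM at 10 mg/L. Water mice 7 and 1 thus lay among the exposed mice, and the other 8 water mice lay above every exposed mouse. The log2 change was -0.82 (SE 0.17, 95% interval -1.17 to -0.47) at an adjusted p of 0.349, and without water mouse 1 it was -0.90 with an adjusted p of 0.0317.

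Btbd9, Dnah8 and Glp1r lie near Glo1 on chromosome 17 in RefSeq. Water mice 7 and 1, low in Glo1, were also low in Btbd9 and Glp1r. So was water mouse 2, which had 168 CPM of Glo1. Btbd9, which encodes a BTB domain protein, had 70.8, 40.1, 83.2, 66.5 and 69.5 CPM in water mice 6 to 10 and 42.6, 52.3, 94.1, 79.7 and 89.8 CPM in water mice 1 to 5. Exposed mice had between 34.7 and 56.4 CPM, a log2 change of -0.67 (95% interval -0.99 to -0.36, adjusted p 0.475). Glp1r, the receptor of glucagon-like peptide 1, had 0.0430 CPM in water mouse 7 and 0.167 and 0.108 CPM in water mice 1 and 2, against 0.563 to 1.11 CPM in the other 7 water mice and 0.0403 to 0.484 CPM in exposed mice. Its log2 change was -1.66 at an edgeR adjusted p of 0.651, and that of the dynein gene Dnah8 was -0.53 at 0.756. Dnah8 had -0.19 at 500 mg/L and -0.87 at 10 mg/L. Glp1r and Dnah8 were chosen after their values had been seen. A duplicated segment that carries Glo1 and these neighbours is known to segregate among laboratory mice. Genotypes were not measured here, and the part of such a segment in these values was not tested.

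Further lower genes and 10 higher genes came next by p, and each had the same sign in both experiments. Among the lower ones, Ust, which adds sulphate to the uronic acids of dermatan and chondroitin sulphate, had 14.7 to 24.9 CPM in exposed mice and 23.6 to 28.7 CPM in water mice, with 8 of 10 exposed mice below every water mouse and a log2 change of -0.40 (adjusted p 0.475). Mtrr, which keeps methionine synthase active, showed 8 of 10 exposed mice below every water mouse as well, at a log2 change of -0.16 (adjusted p 0.513). Sf3b5, a subunit of the splicing factor SF3B, did so in 8 of 10 at -0.20 (adjusted p 0.651). Mepce, the capping enzyme of 7SK RNA, had -0.18 (0.475), Ywhah, a 14-3-3 protein, -0.22 (0.574), Atp5e, the epsilon subunit of mitochondrial ATP synthase, -0.25 (0.651), and Ptges3, the HSP90 co-chaperone p23, -0.30 (0.651). Hspe1, the remaining one of this set, is taken up with the heat shock genes.

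The 10 higher genes had small changes, between 0.14 and 0.31, over narrow spreads. The limit of 2 CPM left out higher genes with larger changes and p-values within the range of these 10. Among them were Gm15541 (0.86), Gm6713 (1.70) and Prkg2 (0.93), with means of 0.314, 0.137 and 0.759 CPM in water mice. Marchf7, a ubiquitin ligase, had the smallest p of the 10 named here. It had 73.5 to 108 CPM in exposed and 61.1 to 97.7 CPM in water mice. Its log2 change was 0.31 (95% interval 0.17 to 0.44, edgeR adjusted p 0.349). All 10 exposed mice lay above the median of their own water group, and 3 of 10 lay above every water mouse. How many of all genes had all exposed mice above these medians was not counted. The experiment term also passed for Marchf7, at an edgeR adjusted p of 0.0274. Ralgapa1, which switches off Ral GTPases, had 135 to 157 CPM in exposed and 125 to 138 CPM in water mice, with 7 of 10 exposed mice above every water mouse and a log2 change of 0.14. The other 8 had an adjusted p of 0.651, as had Ralgapa1. They were the paracaspase Malt1 (0.22), the SUMO protease Senp7 (0.21), Rbm41 (0.20), the repair factor Uvssa (0.20), Arid4b (0.19), the mitochondrial carrier Slc25a36 (0.17), the ubiquitin ligase Ubr1 (0.15) and the splicing kinase Srpk2 (0.14).

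The experiments share no mouse, so each can be set beside the other. Their tests come from the same fit and share its estimate of each gene's spread, so the lists of genes set apart are not independent. No gene passed an adjusted 0.05 at 500 mg/L or at 10 mg/L against water of the same experiment with edgeR or limma-voom, while DESeq2 called 5 and 31. At an unadjusted 0.05, 939 genes (5.17%) were set apart at 500 mg/L, 459 of them higher, and 1158 genes (6.37%) at 10 mg/L, 744 of them higher. In both lists were 93 genes, 9.90% of the first and 8.03% of the second, 48 with the same sign and 45 with opposite signs. The 48 were 5.11% of the first list and 4.15% of the second, and 24 of them were higher and 24 lower. Over all genes the sign agreed for 51.7%, and the changes had a Pearson r of -0.09 and a Spearman rho of -0.02 across the 18169 genes, which are not independent replicates. Among the 10505 genes with a mean of at least 10 CPM, r was -0.13 and rho 0.07. Mid1, Tmsb15b1, Gm52481, Glo1 and Btbd9 were among the 48 with 1 sign. They had been named for a small p over these same mice, so their place among the 48 is not separate support. No gene had an effect that differed between the experiments at an adjusted 0.05 with edgeR or limma-voom, 984 did so at an unadjusted 0.05, and DESeq2 called 15.

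**Figure D2:**
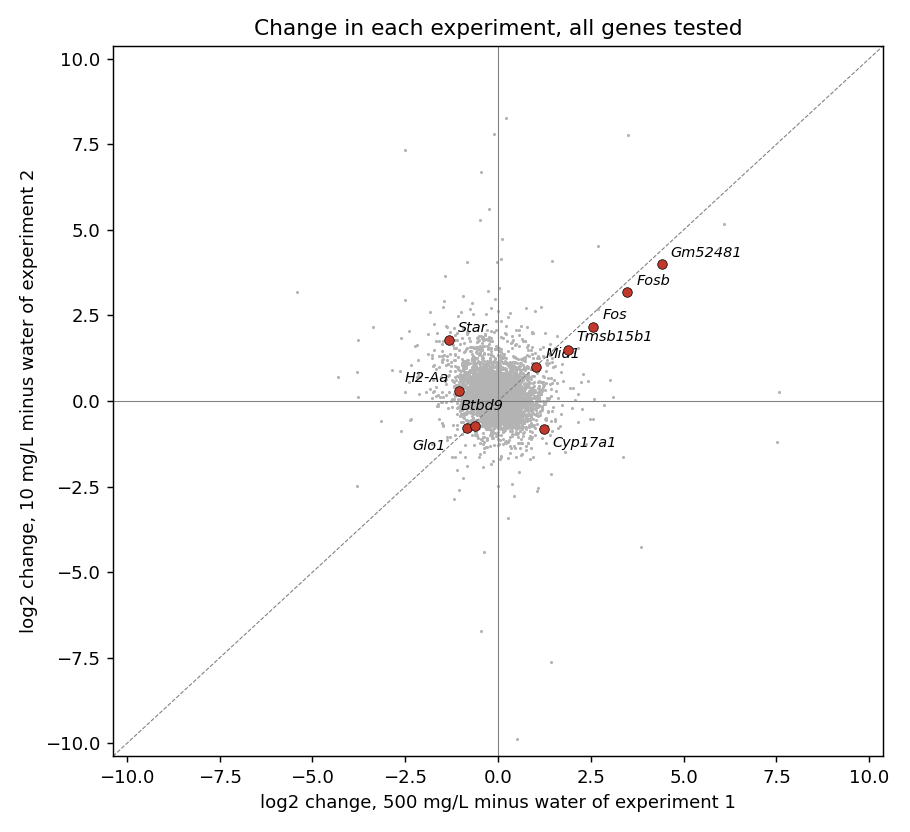
Log2 change at 500 mg/L (x axis) and at 10 mg/L (y axis), each against water mice of its own experiment, for the 18169 genes tested (grey, dashed line: equal change), with named genes in red. Mid1 lies on the dashed line at 1.03 and 0.98, while Star lies at -1.33 and 1.80 and Cyp17a1 at 1.23 and -0.82.

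The target enzyme did not differ detectably in its transcript. Gapdh averaged 1432 ± 178 CPM in exposed mice and 1426 ± 149.6 CPM in water mice (SD, n = 10 each), and the 95% interval of its log2 change of 0.01 ran from -0.15 to 0.16. Of 21 genes of glycolysis and lactate transport, none passed even an unadjusted 0.05. Of these, 10 had a positive and 11 a negative sign, and the median was -0.0026, beside 0.01 over all genes. The experiments differed in sign: 18 were positive at 500 mg/L (median 0.05) and 6 at 10 mg/L (median -0.08). The largest common changes were those of Pdk1, which holds pyruvate back from the mitochondria, at 0.13, and the mutase Pgam1 at -0.13.

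Of 22 genes of the NRF2 and antioxidant group, 15 were negative, and the median was -0.04. None passed the adjusted threshold, and 3 had an unadjusted p under 0.05, all lower, beside 3.02% of all genes: Nqo1, a quinone reductase (-0.39), Txn1, thioredoxin (-0.13), and Nfe2l2, which encodes NRF2 itself (-0.10). Nqo1 was low throughout, with 1.67 to 3.33 CPM in exposed mice and 2.07 to 4.43 CPM in water mice. Hmox1, haem oxygenase, had -0.05 (95% interval -0.27 to 0.17), Gclc, the limiting enzyme of glutathione synthesis, 0.10 (-0.05 to 0.25), and Txnrd1, thioredoxin reductase, -0.04 (-0.15 to 0.08). Of 19 glutathione transferases, 8 were positive and none had an unadjusted p under 0.05.

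Heat shock genes had the largest share of members on the lower side of all the lists. Of 14 genes, 13 were negative, 7 had an unadjusted p under 0.05, beside 3.02% of all genes, and the median was -0.21, beside 0.01 over all genes. None passed the adjusted threshold. The groups of exposed and water mice were further apart in experiment 2, where the median of the members was -0.37 and all 14 were negative, than in experiment 1, where it was -0.06 and 5 of 14 were positive. The difference between the experiments was not tested for the group. The summed level of the 14 genes ran from 6985 to 8923 CPM at 10 mg/L and from 8480 to 10060 CPM in water mice of that experiment, but from 6855 to 8903 CPM at 500 mg/L and from 6850 to 8635 CPM in water mice of experiment 1. The water mice of experiment 1 thus lay at the level of the exposed mice of both experiments.

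Hspe1, the mitochondrial co-chaperonin HSP10, was the member with the smallest p, with log2 changes of -0.23 at 500 mg/L and -0.27 at 10 mg/L. It had 199.8, 169, 203, 161 and 169 CPM in water mice 6 to 10 and 172, 151, 155, 149 and 145 CPM at 500 mg/L. It had 178, 193, 196, 179 and 208 CPM in water mice 1 to 5 and 184, 153, 162, 158 and 134 CPM at 10 mg/L. Of the exposed mice, 7 of 10 lay below every water mouse, and the log2 change was -0.25 (95% interval -0.37 to -0.13, adjusted p 0.513). Its partner Hspd1, which encodes the chaperonin HSP60, had a log2 change of -0.18 (-0.33 to -0.03), from 604 ± 70.9 CPM in exposed and 685 ± 74.6 CPM in water mice (SD, n = 10 each). The genes lie head to head on chromosome 1 and share the stretch between their starts, shown here for the heat shock element it holds, in capitals, TTCNNGAANNTTC on either strand (GRCm38.p6, chr1:55088051-55088079, plus strand).

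Hspe1: acggtccgTTCTAGAACCTTCcggaaggc

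The element begins 89 bases before the start of Hspe1, and a second match on the other strand overlaps it. The element occurs in 153 of 32851 promoters over 250 bases (0.466%), and of the 10 heat shock genes found in the table, these 2 hold it in this strict form. Hsph1, an HSP110 chaperone, had 137 to 308 CPM in exposed and 188 to 413 CPM in water mice, a log2 change of -0.46 (95% interval -0.81 to -0.11). Dnaja1, an HSP40 co-chaperone, had -0.29 (-0.50 to -0.08), and both had an adjusted p of 0.651 or more. The abundant Hsp90ab1 had 0.01 (-0.11 to 0.13), and Hspa1a and Hspa1b, the inducible HSP70 genes, had intervals from -0.82 to 0.56 and from -0.90 to 0.48.

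The unfolded protein and integrated stress response gave 15 negative signs among 22 genes, a median of -0.06 and no adjusted call. On the lower side 4 had an unadjusted p under 0.05, beside 3.02% of all genes, among them Xbp1, the transcription factor of the response, at -0.27 (95% interval -0.47 to -0.07), and Creld2, an endoplasmic reticulum protein, at -0.23. On the higher side stood Ppp1r15a (GADD34), a phosphatase subunit that ends the block of translation, at 0.80 (0.29 to 1.30, adjusted p 0.651). Its values were uneven: 289 CPM in mouse 5 at 500 mg/L and 132, 109.7 and 158 CPM in mice 2, 4 and 5 at 10 mg/L, against 54.5 to 89.4 CPM in water mice. Mouse 1 at 500 mg/L, with 96.1 CPM of Ppp1r15a, also lay above every water mouse.

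The immediate early genes, which respond within minutes to growth factors, stress or handling of tissue, include Fos and Fosb, in which mouse 5 at 500 mg/L and mice 2, 4 and 5 at 10 mg/L were high. Fos had 66.9, 70.5, 69.3, 24.8 and 1573 CPM in mice 1 to 5 at 500 mg/L and 25.8, 322, 52.3, 347 and 644 CPM in mice 1 to 5 at 10 mg/L. Water mice had between 31.4 and 122 CPM. The other 6 exposed mice, at 24.8 to 70.5 CPM, were thus not above the water mice. Fosb had 471 CPM in mouse 5 at 500 mg/L and 62.8, 80.6 and 135 CPM in mice 2, 4 and 5 at 10 mg/L, against 1.90 to 29.7 CPM in water mice. The log2 changes were 2.37 for Fos (95% interval 0.93 to 3.81) and 3.34 for Fosb (1.36 to 5.31), both at an adjusted p of 0.651. Of 20 immediate early genes, 19 were positive, 12 had an unadjusted p under 0.05 on the higher side, beside 3.57% of all genes, and the median was 1.13. Without mouse 5 at 500 mg/L the median was 0.52, the change of Fos 1.15 and that of Fosb 1.55. Atf3, a stress-induced transcription factor, had a wider pattern: 7 of 10 exposed mice, with 2.96 to 19.3 CPM, lay above every water mouse (1.56 to 2.62 CPM), among them mouse 1 at 500 mg/L and all 5 at 10 mg/L. Its log2 change was 1.24 (95% interval 0.43 to 2.05, adjusted p 0.651). The Fos-related gene Fosl2 was the 1 negative member, at -0.26.

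**Figure D3:**
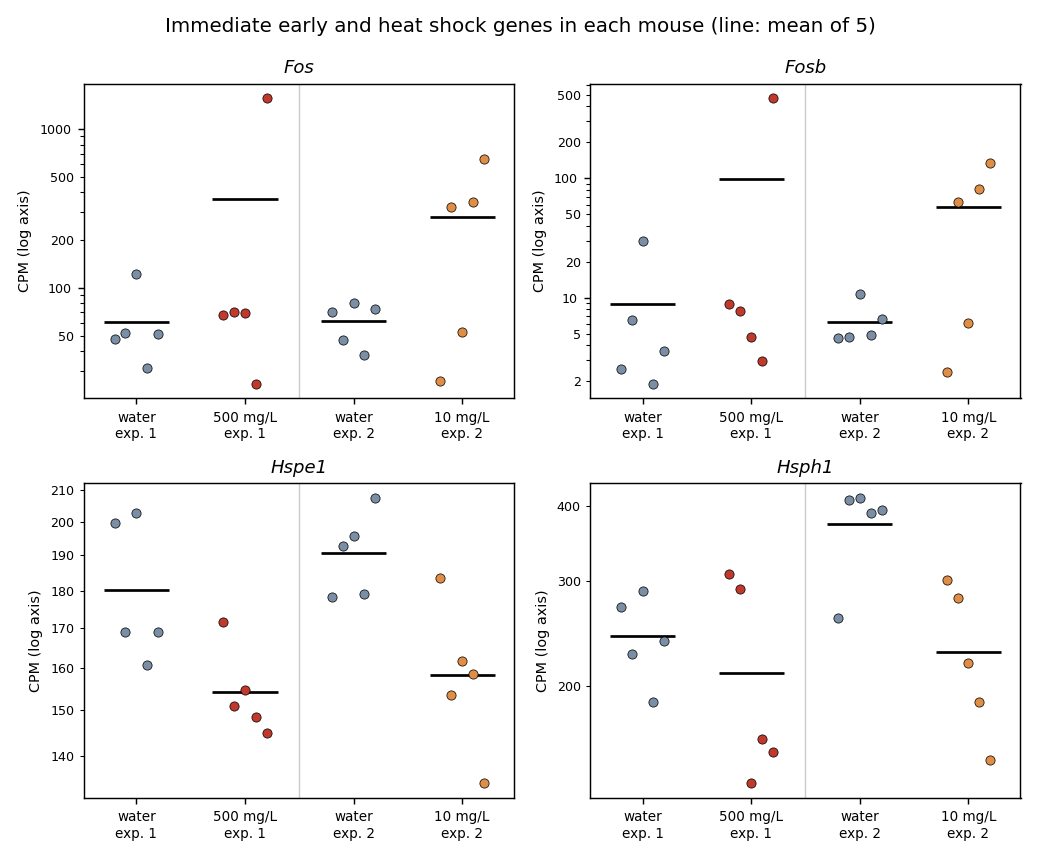
Level of the immediate early genes Fos and Fosb and the heat shock genes Hspe1 and Hsph1 in each of the 20 mice, in CPM on a log axis, by group (points: mice in the order of their numbers, lines: means of 5). Mouse 5 at 500 mg/L and mice 2, 4 and 5 at 10 mg/L stand above the water mice in Fos and Fosb, and 7 of 10 exposed mice lie below every water mouse in Hspe1.

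All 13 endothelial markers were positive, beside 51.9% of all genes. At an unadjusted p under 0.05, 2 of them were higher, beside 3.57% of all genes, and the median was 0.19, with 0.03 at 500 mg/L and 0.33 at 10 mg/L. The summed level of the 13 ran from 434 to 635 CPM at 10 mg/L and from 353 to 482 CPM in water mice of that experiment, and from 361 to 569 CPM at 500 mg/L and from 368 to 566 CPM in those of experiment 1. Pecam1, which encodes an adhesion protein of endothelial junctions, had 47.0, 44.5, 38.3, 51.3 and 53.2 CPM at 500 mg/L and 49.2, 57.5, 46.5, 59.7 and 58.5 CPM at 10 mg/L, against 36.1 to 50.1 CPM in water mice. Its log2 change was 0.21 (95% interval 0.05 to 0.37, adjusted p 0.651), and that of the sialomucin Emcn was 0.24 (0.03 to 0.46, adjusted p 0.711). The part of vessel content in the values of the immediate early genes was not tested.

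Other cell types showed wide spreads. The 5 red cell genes were all positive, with a median of 0.78, and their summed level ran from 25.8 to 133 CPM in exposed and from 16.9 to 76.0 CPM in water mice. Of 12 immune markers, 10 were negative at a median of -0.22, which was -0.53 at 500 mg/L and 0.25 at 10 mg/L. H2-Aa, a class II antigen-presenting gene, had -1.05 at 500 mg/L and 0.31 at 10 mg/L, and the difference of these had an unadjusted p of 0.0086 and an adjusted p of 0.834. Of 10 luteal markers, 9 were positive at a median of 0.16. Within the experiments, 3 luteal markers were positive at 500 mg/L (median -0.25) and 9 at 10 mg/L (median 0.54). Of 9 markers of smooth muscle and pericytes, 5 were positive at a median of 0.0016. Within the experiments, 1 of these was positive at 500 mg/L (median -0.08) and 8 at 10 mg/L (median 0.16). Granulosa markers had a median of -0.02, with 6 of 12 positive, theca markers of 0.06 and oocyte markers of 0.02. The 14 oocyte markers were all positive at 500 mg/L, with a median of 0.16, and all but 1 negative at 10 mg/L, with a median of -0.12. Amh, the anti-Müllerian hormone made by granulosa cells of growing follicles, was the granulosa marker with the smallest p, with a log2 change of -0.34 (95% interval -0.72 to 0.04, adjusted p 0.79).

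**Figure D4:**
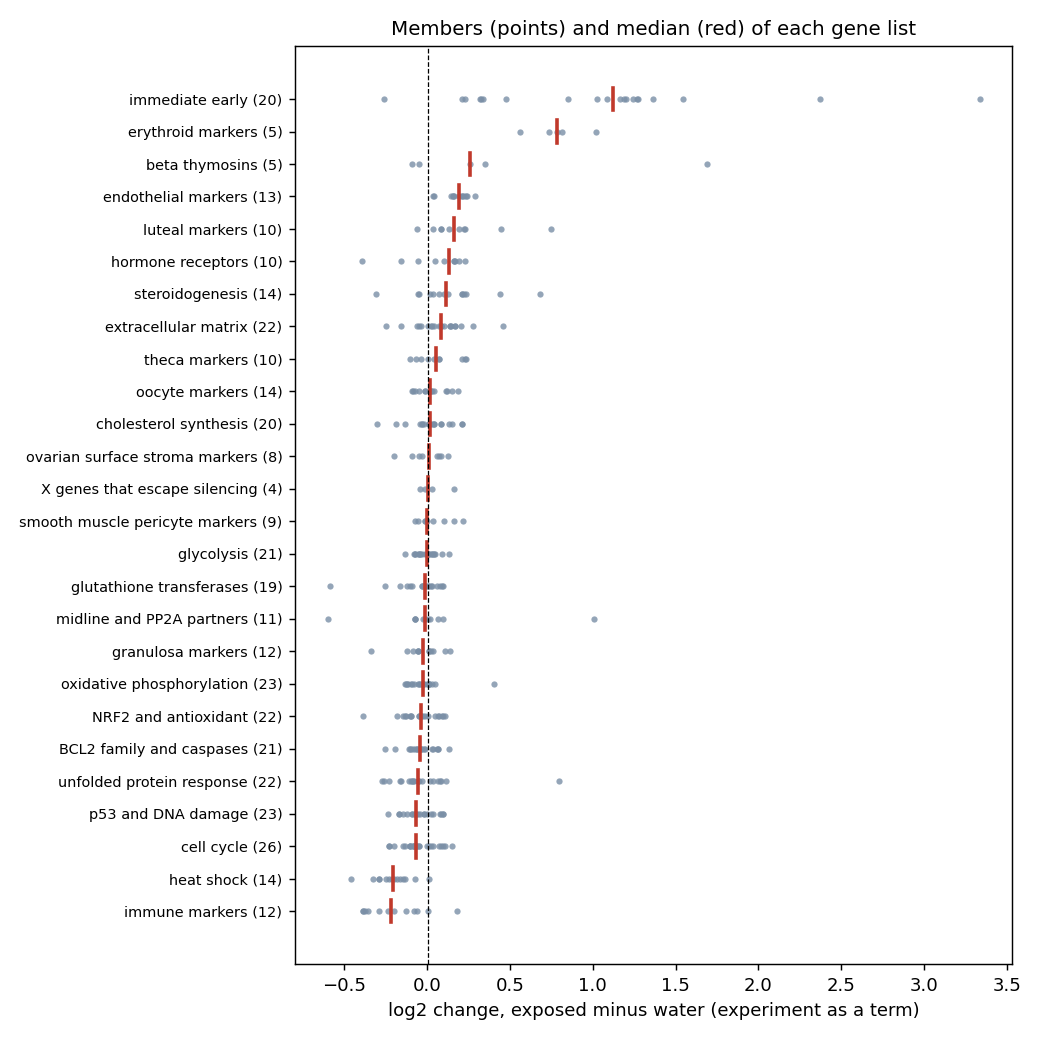
Log2 change of exposed against water mice for the members of each gene list (points) and their median (red), with the number of members tested in brackets and the median of all genes dashed. The immediate early genes have the highest median, 1.13, and the heat shock genes and immune markers the lowest, -0.21 and -0.22.

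Steroidogenic genes varied so much between mice that wide intervals remained. Star, which carries cholesterol into mitochondria, had 346, 2516, 664, 903 and 198 CPM in water mice 6 to 10 and 432, 215, 299, 423 and 475 CPM at 500 mg/L. It had 266, 222, 489, 171 and 147 CPM in water mice 1 to 5 and 412, 269, 486, 2293 and 1038 CPM at 10 mg/L. The log2 changes were -1.33 and 1.80, with an unadjusted p of 0.00217 and an adjusted p of 0.81 for their difference, and the common change was 0.23 (95% interval -1.09 to 1.55). Without mouse 4 at 10 mg/L it was -0.17. Cyp17a1, the androgen-forming enzyme of theca cells, went the other way, with 1.23 at 500 mg/L, -0.82 at 10 mg/L and a common change of 0.21 (-0.75 to 1.16). Cyp11a1, which cuts the side chain of cholesterol, had -0.51 and 0.96 and a common change of 0.22 (-0.50 to 0.95). Aromatase, encoded by Cyp19a1, had 0.44 (-0.58 to 1.46) and 9.26 to 242 CPM among exposed mice. Hsd3b1, which forms progesterone, had the narrowest interval of the 5 steroidogenic genes named here, with 4001 ± 925 CPM in exposed and 3898 ± 659 CPM in water mice (SD, n = 10 each) and a log2 change of 0.04 (-0.23 to 0.31). Of 14 genes of the pathway, 11 were positive, none had an unadjusted p under 0.05, and the median of 0.11 was -0.17 at 500 mg/L and 0.31 at 10 mg/L.

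Hormone receptors were also without an adjusted call among 10. Fshr, the receptor of follicle-stimulating hormone, had 0.17 (95% interval -0.23 to 0.57), and Lhcgr, the receptor of luteinising hormone, 0.23 (-0.30 to 0.76). Insr, the insulin receptor, was the 1 receptor of 10 with an unadjusted p under 0.05, beside 6.59% of all genes. It had a log2 change of 0.16 (0.03 to 0.29). All 10 exposed mice lay above the median of their own water mice, and 1 of 10 lay above every water mouse. How many of all genes had all exposed mice above these medians was not counted.

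**Figure D5:**
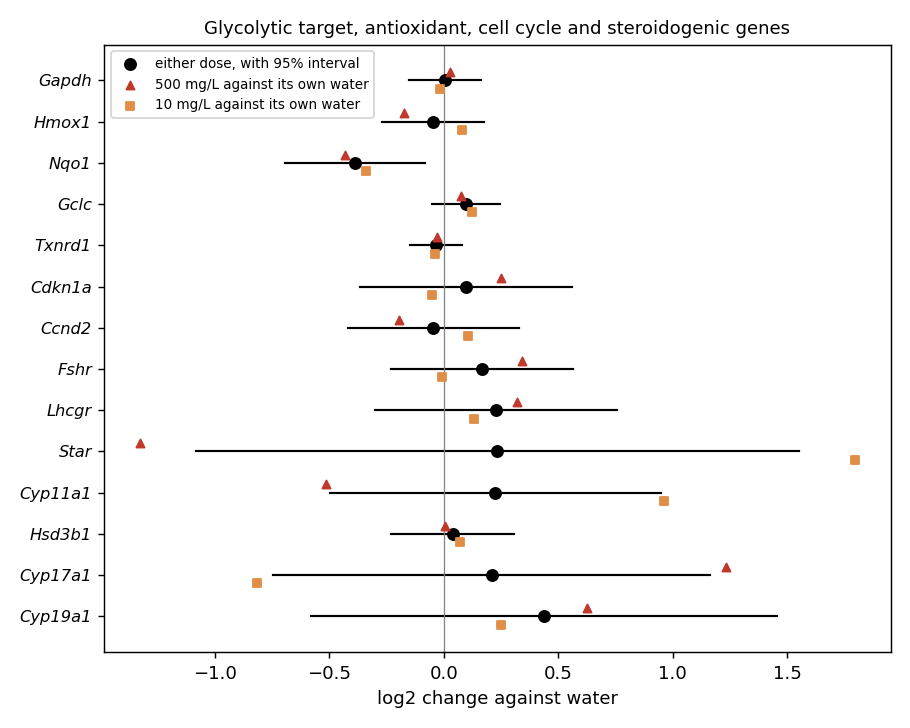
Log2 change of 14 genes: Gapdh, genes of antioxidant defence, the cell cycle and steroid synthesis, and the hormone receptors Fshr and Lhcgr (black: either dose with its 95% interval, red triangles: 500 mg/L, orange squares: 10 mg/L, each against its own water mice). The interval of Gapdh ends at 0.16, and that of Star runs from -1.09 to 1.55 with the doses on opposite sides.

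Genes of DNA damage, cell death and proliferation were more often negative than positive in the common change, beside 51.9% of all genes positive. Of 23 p53 and DNA damage genes, 7 were positive in the common change, 13 at 500 mg/L and 4 at 10 mg/L. The median of the common change was -0.07 and none had an unadjusted p under 0.05. Cdkn1a, the cell cycle inhibitor p21 and a p53 target, had 0.10 (95% interval -0.37 to 0.56). Of 21 genes of the BCL2 family and the caspases, 6 were positive in the common change, 5 at 500 mg/L and 11 at 10 mg/L. Of the 21, 1 had an unadjusted p under 0.05, beside 6.59% of all genes: Bcl2l2, which protects cells from death, at 0.13. Of 26 cell cycle genes, 9 were positive in the common change, 11 at 500 mg/L and 5 at 10 mg/L. The median of the common change was -0.07, and 1 had an unadjusted p under 0.05: Ccnd3, cyclin D3, at -0.23 (-0.42 to -0.04) with an adjusted p of 0.672. Ccnd2, the main D cyclin of granulosa cells, had -0.05 (-0.42 to 0.33). Of 23 nuclear genes of oxidative phosphorylation, 7 were positive at a median of -0.03. At an unadjusted p under 0.05, 3 of them were lower (Ndufa4, Sdhc and Cox5b), beside 3.02% of all genes. On the higher side was 1, Cox7c, beside 3.57% of all genes, and none passed the adjusted threshold. Matrix genes, with 17 of 22 positive in the common change, 10 at 500 mg/L and 19 at 10 mg/L, had a median of 0.08. Cholesterol synthesis genes had 0.02.

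How small a shared change could have gone unseen differed by gene. The median SE of a log2 change was 0.11. For 13170 genes (72.5%) the 95% interval lay within 1.5-fold in either direction, and for 7446 (41.0%) within 1.2-fold, so for these a larger mean change over the doses is outside the interval of the gene. Effects of opposite sign in the experiments would cancel in this comparison.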

How the data were processed

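Follicle mRNA libraries were read single-end over 101 cycles, per the labels' protocols. The submitters' processing notes name R 4.1.2 with limma and edgeR, Salmon 1.2.0, FastQC 0.11.8 and the build GRCm39. The authors deposited estimated counts per gene, not normalised, with a mark for the genes they kept. Kept genes held 99.97% of the counts. Counts were rounded to whole numbers.

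Counts were fitted in R 4.3.3 with edgeR 4.0.16 (TMM, robust quasi-likelihood F-test, two-sided, terms experiment and exposure, Benjamini-Hochberg adjustment at 0.05 over 18169 genes). Experiment was read from the column headers. A model with 4 means gave the change within each experiment. SE and 95% intervals come from the F statistic, and SD is over mice on CPM. The pipeline was tested on simulated data. Within groups, none of 40 pairs of libraries agreed within sampling noise (chi-square over genes, 21.7 or more per gene).

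The comparison, members and gene lists were chosen with earlier results of these data known, and lists got counts and medians, not tests. Named genes were the adjusted calls, the 10 smallest p per direction with 1 sign in both experiments and at least 2 CPM, up to 4 members with the smallest p per list, a set of follicle genes whatever their values, and up to 6 genes called by other fits. Members named beyond these were added for their function. Alternatives changed scaling, filter, tool (limma 3.58.1, DESeq2 1.42.0) or term, or left out each mouse. Replicate numbers did not pair mice: correlations of the 5 same-numbered pairs of experiment 2 ran from -0.121 to 0.077.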

Additional observations from a re-analysis of the deposited data

Results flagged for a closer look

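Of 272 groups of 5 mice examined over 68 genes, on the scale of log2 of CPM plus 0.1, 15 held a mouse that stood far from the nearest other relative to the range of its group. Chance flags about 1 in 20 groups. At 500 mg/L, mouse 5 stood apart in Fos (1573 against a nearest 70.5 CPM) and in Fosb (471 against 8.83 CPM), and mouse 4 in Glo1 (144 against 94.4 CPM) and Btbd9 (56.4 against 41.2 CPM). Water mouse 7 stood low in Glo1 (96.9 against 189.9 CPM), Glp1r (0.0430 against 0.826 CPM) and Ralgapa1 (125 against 132 CPM) and high in Ccnd3 (78.7 against 50.1 CPM). Of the other water mice of experiment 1, mouse 6 stood low in Uvssa (17.5 against 19.7 CPM) and mouse 9 low in Xbp1 (145 against 198 CPM). Of those of experiment 2, mouse 1 stood low in Hsph1 (259 against 389 CPM) and high in H2-Aa (23.8 against 16.5 CPM), and mouse 4 high in Slc25a36 (153 against 129 CPM). At 10 mg/L, mouse 2 stood low in Sf3b5 (39.2 against 51.0 CPM) and mouse 5 high in Atf3 (6.85 against 3.72 CPM).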

How the results depend on the processing

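The count of 2 genes was the same under DESeq2's size factors, upper-quartile factors, 3 other filters and the mean of the within-experiment changes. It was 3 without the experiment term, where Gm52481 passed. It was 1 with limma-voom and with limma-trend, where Mid1 was called, and 16 with DESeq2, which also used its own size factors and filter. Of the 16, Gm14419 lay outside the genes tested otherwise. Beside Mid1 and Tmsb15b1, DESeq2 called Gm52481 (DESeq2 adjusted p 5.64e-07), Marchf7, Gm15541, Gm6713, Ralgapa1 and Fosb (0.0491) as higher. As lower it called Glo1 (DESeq2 adjusted p 0.00268), Mtrr, Btbd9, Mepce, Ust, Hspe1 and Rcc2 (0.0491). None of these but Mid1 and Tmsb15b1 passed in the main edgeR fit. DESeq2 called 5 genes at 500 mg/L, 31 at 10 mg/L, 15 for the difference of the doses and 763 for the experiment term, against 0, 0, 0 and 370. Leaving out 1 mouse gave 1 to 3 calls: 1 in 11 fits, 2 in 4 and 3 in 5. The single calls arose without any one of water mice 2, 3, 5, 6, 7, 8 and 10, mice 4 and 5 at 10 mg/L and mice 4 and 5 at 500 mg/L. Tmsb15b1 missed the threshold in these and without water mouse 9, at adjusted p-values up to 0.0896. The experiment term then called 249 to 445 genes. With a replicate block beside experiment, 0 genes passed, and Mid1 had a log2 change of 0.97 at an adjusted p of 0.505. Water mice 6 to 10 share no number with a mouse of their experiment, so this value rests on the 5 pairs of experiment 2, whose numbers did not pair the mice, and no exposed mouse correlated best with its own number.

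Directions near 0 reversed. Cdkn1a was -0.0435 with limma-voom and -0.00695 with limma-trend. Without 1 mouse, log2 changes ranged from -0.0281 to 0.0406 for Gapdh, -0.168 to 0.686 for Star, -0.0180 to 0.398 for Cyp17a1, -0.00857 to 0.102 for Hsd3b1, -0.0318 to 0.182 for Cdkn1a, -0.177 to 0.0590 for Ccnd2 and -0.117 to 0.0085 for Hmox1. Depth limits Gm52481, Glp1r and Tmsb15b1, whose levels in water mice were at most 0.330, 1.11 and 0.685 CPM. The cause of these differences between settings was not tested.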

Other observations

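Gm14419, a gene outside the tested set that RefSeq lists as a miscellaneous RNA, passed DESeq2's test and was chosen here after its values were seen. It had 630 and 263 counts in mice 2 and 3 at 500 mg/L, 243 counts in mouse 2 at 10 mg/L and 0 counts in the other 17 mice. Mouse 2 at 10 mg/L also had 47.6 CPM of the small nuclear RNA gene Rnu1a1, against at most 0.611 CPM in the other mice.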
